A study of Mus musculus with 11 samples.

Results

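The TNF superfamily genes described here are 3 ligands, Tnf, Tnfsf10 and Ltb, and 7 receptors, Tnfrsf1a, Tnfrsf1b, Tnfrsf10b, Fas, Ltbr, Tnfrsf9 and Cd40. They were chosen by name, as TNF family and death ligands with their receptors, and make 10 of the 52636 genes listed in the count files. All 10 had enough reads to be tested, among 17243 genes that did. RNA-seq was performed on 11 whole fetal livers at stage E15.5, with no treatment, on a C57BL/6N background. The genotypes were WT (n = 3), Tnfr1 KO (n = 2), Casp8 Mlkl dKO (n = 3) and Casp8 Tnfr1 dKO (n = 3). The knockouts are -/- alleles of the whole animal and not limited to a cell type. Tnfr1 KO and Casp8 Tnfr1 dKO share the loss of TNFR1, the receptor that Tnfrsf1a encodes. Both dKO genotypes share the loss of caspase-8, and Casp8 Mlkl dKO also lacks MLKL, the pseudokinase that carries out necroptosis. The study counts its replicates as fetal livers, so the p-values measure the spread between livers of a genotype.

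TNF family ligands are trimeric membrane proteins, some of them shed from the cell surface, and their receptors fall into classes by what they bind inside the cell. Death receptors (TNFR1, FAS and the TRAIL receptor) carry a death domain and can assemble complexes that contain FADD and caspase-8, while receptors such as TNFR2, LTBR, 4-1BB and CD40 bind TRAF proteins and signal to NF-kB. Caspase-8 decides the outcome of death receptor signalling, since it can drive apoptosis and also restrains necroptosis through RIPK1, RIPK3 and MLKL. The fetal liver is the main blood-forming organ at this stage and holds erythroid, myeloid and megakaryocytic cells beside hepatoblasts, endothelium and resident macrophages.

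Several of these genes are known NF-kB or interferon targets, so their promoters were read from RefSeq (GRCm38.p6), which held 9 windows for 8 members, each of 300 bases from 250 before to 50 after the annotated start. Tnfrsf10b and Cd40 were without an entry. Matches on either strand were searched for the NF-kB consensus, the interferon-stimulated response element (ISRE, written as GAAA, any 2 bases and GAAA), the STAT site (GAS) TTCNNNGAA and the AP-1 site TGANTCA. The NF-kB consensus was found in Ltb and in the downstream Tnfrsf9 start, 2 of the 9 windows, and in 4.51% of all 32851 promoters in the table. The ISRE was found in Tnfrsf1b (3.44% of all promoters), and AP-1 in Fas and the downstream Tnfrsf9 start (7.81%). GAS letters were found in 5 of the 9 windows (Fas, Ltb, Tnfrsf1a, Tnfrsf1b and the downstream Tnfrsf9 start) and in 8.3% of all promoters. The windows of Tnf, Tnfsf10 and Ltbr, and the upstream Tnfrsf9 start, did not hold these letters. The 3 windows with an NF-kB or ISRE match are given here because they carry these sites, in the direction of transcription, with every match to any of the 4 motifs in capitals. The longest capital run in Tnfrsf9 holds a pair of overlapping NF-kB matches. On GRCm38 (GENCODE M21) the ligand genes lie at chr17:35199381-35202007 (Tnf), chr17:35194439-35196320 (Ltb) and chr3:27317028-27342427 (Tnfsf10). The receptor genes lie at chr6:125349362-125362484 (Tnfrsf1a), chr6:125306571-125313885 (Ltbr), chr4:145213463-145246870 (Tnfrsf1b), chr4:150914562-150946102 (Tnfrsf9), chr14:69767472-69784411 (Tnfrsf10b), chr19:34290666-34327772 (Fas) and chr2:165055627-165072948 (Cd40), all protein-coding. The windows lie at chr17:35194257-35194556 on the plus strand (Ltb), chr4:150927749-150928048 on the plus strand (Tnfrsf9) and chr4:145246821-145247120 on the minus strand (Tnfrsf1b).
Ltb: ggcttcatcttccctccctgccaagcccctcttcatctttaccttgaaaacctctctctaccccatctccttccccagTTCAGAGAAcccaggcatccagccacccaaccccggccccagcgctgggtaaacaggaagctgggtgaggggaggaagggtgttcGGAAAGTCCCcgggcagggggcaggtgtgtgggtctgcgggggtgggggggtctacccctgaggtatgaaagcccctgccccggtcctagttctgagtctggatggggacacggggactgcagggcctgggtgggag
Tnfrsf9: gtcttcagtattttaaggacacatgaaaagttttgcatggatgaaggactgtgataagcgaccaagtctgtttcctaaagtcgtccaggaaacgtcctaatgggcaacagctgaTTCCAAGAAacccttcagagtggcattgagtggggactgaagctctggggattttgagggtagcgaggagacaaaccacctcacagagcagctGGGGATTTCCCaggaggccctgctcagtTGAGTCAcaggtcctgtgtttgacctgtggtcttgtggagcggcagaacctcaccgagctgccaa
Tnfrsf1b: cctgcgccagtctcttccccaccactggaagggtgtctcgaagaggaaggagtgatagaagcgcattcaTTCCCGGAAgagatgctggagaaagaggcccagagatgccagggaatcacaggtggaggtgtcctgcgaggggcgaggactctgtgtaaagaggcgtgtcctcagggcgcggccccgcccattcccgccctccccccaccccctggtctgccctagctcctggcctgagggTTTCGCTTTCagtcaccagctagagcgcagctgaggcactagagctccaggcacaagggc

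The libraries held 23129212 to 35819339 reads in genes. A pair of livers stood apart. Casp8 Tnfr1 dKO replicate 3 correlated with the other livers at r = 0.840 to 0.891 over log2 CPM (reads of a gene relative to the scaled library total), and its 9 striated muscle markers summed to 1455 CPM against at most 33.0 in any other liver. Its erythroid markers summed to 132244 CPM against 27076 to 45018 elsewhere. Casp8 Mlkl dKO replicate 1 held 197553 CPM of hepatocyte markers against 48731 to 95705 elsewhere. CPM were scaled by trimmed mean of M-values (TMM), with factors of 0.758 and 0.812 for these livers and 1.01 to 1.09 for the rest. The 6 stromal markers summed to 2520 CPM in Casp8 Tnfr1 dKO replicate 3 against 612 to 853 elsewhere, and the 6 endothelial markers to 650 CPM against 334 to 519. The 8 neutrophil markers summed to 5086 to 14486 CPM in Casp8 Tnfr1 dKO against 1060 to 3325 in the other 8 livers. At an edgeR adjusted p under 0.05, 4 of the 8 rose against WT, 1 against Tnfr1 KO and 0 against Casp8 Mlkl dKO. The shares of all genes tested that rose were 5.1%, 2.05% and 1.54%. In whole livers, more cells of a type and more RNA per cell cannot be told apart.

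The targeted genes were read first. Casp8 stood at 27.7 to 33.9 CPM in WT and Tnfr1 KO, at 7.82 to 10.2 CPM in Casp8 Mlkl dKO and at 11.5 to 21.9 CPM in Casp8 Tnfr1 dKO. Mlkl stood at 0.730 to 1.22 CPM in Casp8 Mlkl dKO, at 3.68 to 4.46 CPM in WT and Tnfr1 KO and at 13.3 to 24.6 CPM in Casp8 Tnfr1 dKO. Tnfrsf1a, by contrast, stood at 49.8 and 50.5 CPM in the Tnfr1 KO livers, inside the WT range of 47.1 to 53.4 CPM. Its count covers the whole gene, so it does not check the Tnfr1 KO label, and Tnfrsf1a values in Tnfr1 KO and Casp8 Tnfr1 dKO are reads from the targeted locus and not a measure of receptor.

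In WT liver, Tnfrsf1a, Ltbr, Tnfrsf1b, Fas and Cd40 stood above the 3 ligands when levels were set per length, as CPM per kilobase of exon (RPKM). Tnfrsf1a and Ltbr were highest, at 23.7 ± 1.61 and 22.3 ± 1.45 RPKM (SD, n = 3), with overlapping ranges. Tnfrsf1b followed at 8.08 ± 1.13 RPKM, then Fas at 1.92 ± 0.179 RPKM and Cd40 at 0.952 to 1.10 RPKM. Ltb (0.511 ± 0.191 RPKM), Tnfrsf10b (0.348 ± 0.0565 RPKM) and Tnf (0.337 ± 0.226 RPKM) overlapped each other. Tnfsf10 stood at 0.134 ± 0.00220 RPKM and Tnfrsf9 at 0.0363 ± 0.0388 RPKM, the latter from 5, 0 and 2 reads. Each of the 10 genes had reads in WT liver, with Tnfrsf9 at the edge of detection.

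**Figure D1:**
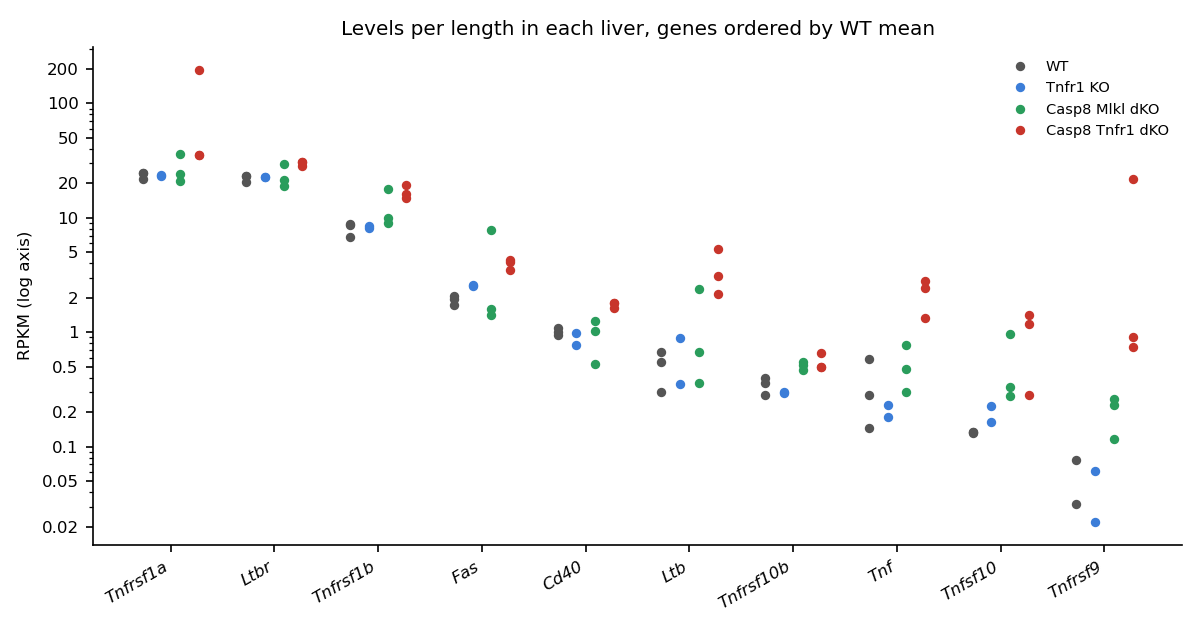
RPKM on a log axis for the 10 genes in each of the 11 livers, coloured by genotype and ordered by the WT mean, with each point 1 liver. The 0 value of Tnfrsf9 in WT replicate 2 is left out. Tnfrsf1a, Ltbr and Tnfrsf1b lead in WT, and Tnfrsf9 reached 21.9 RPKM in Casp8 Tnfr1 dKO replicate 3.

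Against WT, Casp8 Tnfr1 dKO livers held more Tnf, Tnfsf10, Tnfrsf1b and Tnfrsf9. These 4 of 10 genes rose at an adjusted p under 0.05 (edgeR quasi-likelihood test, Benjamini-Hochberg adjustment over all genes tested), and none fell. Over all genes tested, 5.1% rose and 0.702% fell, 5.8% in all. The log2 fold change was above 0 for all 10 members, with a median of 1.48, against 49.9% of all genes tested and a median of -0.0015. Each of the 10 was higher in every Casp8 Tnfr1 dKO liver than in every WT liver, as were 19.5% of all genes tested. Without the pair of livers that stood apart, 9 of the 10 rose (all but Tnfrsf10b), while 17.8% of all genes tested rose and 31.3% were called in either direction. Leaving out Casp8 Mlkl dKO replicate 1 alone left 8 called, next to 9.45% of all genes. Leaving out WT replicate 2 or WT replicate 3 left 0 members called, and leaving out WT replicate 1 left 1, with 1.63% to 2.14% of all genes called. The neutrophil marker sums given above moved with this genotype too, and their part in these results was not tested.

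**Figure D2:**
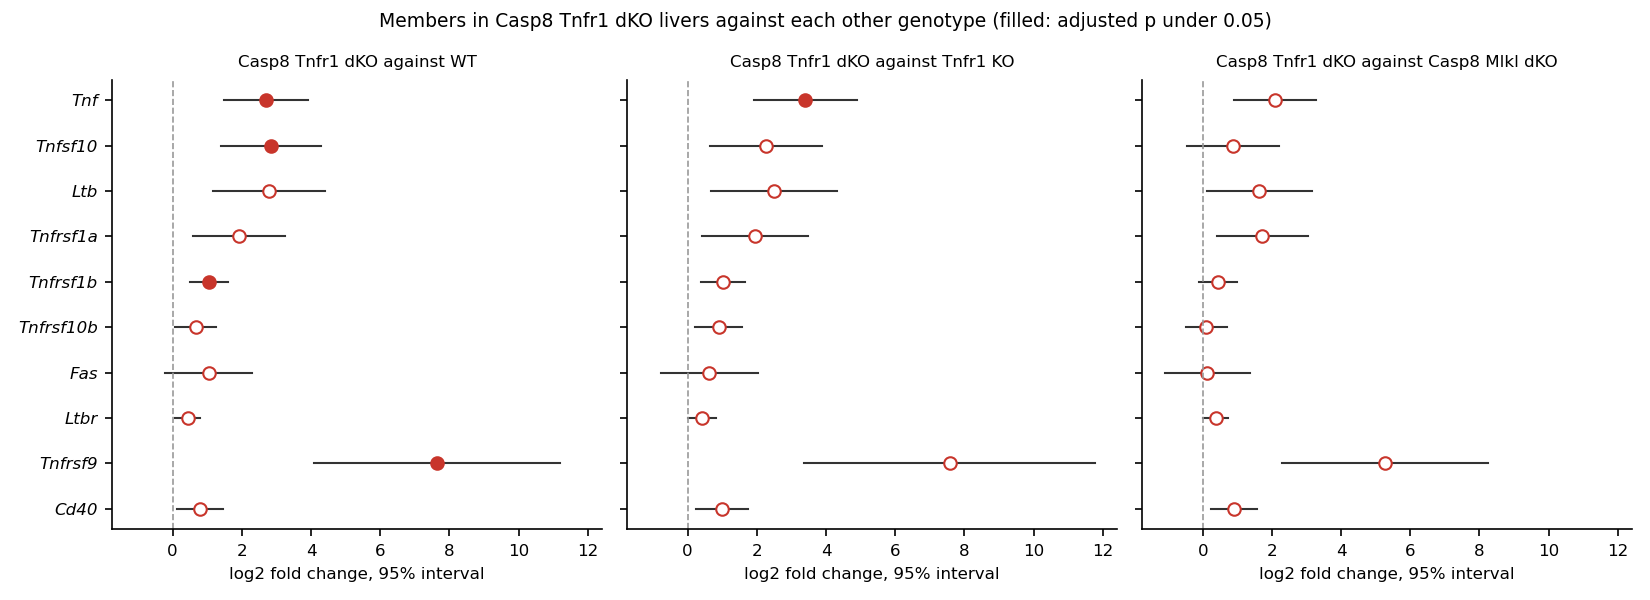
Log2 fold change of each member in Casp8 Tnfr1 dKO livers (n = 3) against WT (n = 3), Tnfr1 KO (n = 2) and Casp8 Mlkl dKO (n = 3), with 95% intervals from the edgeR fit as lines and filled points for an adjusted p under 0.05. All 30 points lie above 0, 5 of them filled, and Tnfrsf9 lies farthest out, at 7.65 against WT.

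Tnf, the founding ligand of the family and the ligand of TNFR1 and TNFR2, separated Casp8 Tnfr1 dKO from the other genotypes. It stood at 0.960, 0.461 and 0.237 CPM in WT replicates 1 to 3, at 0.301 and 0.380 CPM in Tnfr1 KO, at 1.26, 0.785 and 0.497 CPM in Casp8 Mlkl dKO and at 4.61, 3.99 and 2.17 CPM in Casp8 Tnfr1 dKO. All 3 Casp8 Tnfr1 dKO livers lay above the other 8, as they did for 7.43% of all genes tested. The lowest of these 3 livers was replicate 3. The reads behind these levels ranged from 6 to 31 in the other 8 livers and were 151, 116 and 38 in Casp8 Tnfr1 dKO. Against WT the log2 fold change was 2.69 ± 0.55 (SE, adjusted p = 0.0203 by the edgeR quasi-likelihood test), or 6.46-fold. It was 3.40 ± 0.67 against Tnfr1 KO (adjusted p = 0.0306) and 2.09 ± 0.53 against Casp8 Mlkl dKO (adjusted p = 0.0923). The call against WT was lost without WT replicate 2 (adjusted p = 0.105) or WT replicate 3 (adjusted p = 0.0868) and held in the same edgeR fit with any other liver left out, at a log2 change of 3.37 without WT replicate 1. Against Casp8 Mlkl dKO, Tnf was called without Casp8 Tnfr1 dKO replicate 3 (2.35 ± 0.47, edgeR adjusted p = 0.0320). Without the pair of livers that stood apart, the log2 change from WT was 2.96 ± 0.38 (edgeR adjusted p = 3.82e-05).

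Tnfsf10 encodes TRAIL, a death ligand and known interferon-inducible gene. It was at 0.691 to 0.713 CPM in the 3 WT livers and at 1.20 and 0.874 CPM in Tnfr1 KO. In Casp8 Mlkl dKO it was at 5.11, 1.74 and 1.45 CPM, and in Casp8 Tnfr1 dKO at 7.41, 6.16 and 1.48 CPM. All livers of the other genotypes, Tnfr1 KO included, were higher than the WT livers. Over all genes tested, such separation from WT held for 19.5% in Casp8 Tnfr1 dKO, 10.8% in Casp8 Mlkl dKO and 17.3% in Tnfr1 KO. Casp8 Tnfr1 dKO replicate 3 lay among the Casp8 Mlkl dKO livers, so the dKO genotypes overlapped. Against WT the log2 fold change was 2.83 ± 0.65 (edgeR adjusted p = 0.0337), and it was 2.27 ± 0.73 against Tnfr1 KO (adjusted p = 0.164) and 0.87 ± 0.59 against Casp8 Mlkl dKO (adjusted p = 0.503). The call against WT was lost in 7 of the 11 fits that left out 1 liver (edgeR adjusted p 0.0516 to 0.142): each WT liver, each Tnfr1 KO liver, and Casp8 Tnfr1 dKO replicate 1 or 2. Without the pair of livers that stood apart, the value against WT was 3.28 ± 0.23 (edgeR adjusted p = 1.01e-07). Against Tnfr1 KO, Tnfsf10 was called without Casp8 Tnfr1 dKO replicate 3 (2.69 ± 0.545, edgeR adjusted p = 0.0227). Against Casp8 Mlkl dKO the value was 1.66 ± 0.58 without Casp8 Mlkl dKO replicate 1 (edgeR adjusted p = 0.190) and 2.09 ± 0.23 without both livers (adjusted p = 1.80e-05).

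Ltb encodes lymphotoxin-beta, a part of the ligand of LTBR in lymphoid organ development, and lies 3060 bases from Tnf on chromosome 17. It was at 0.653, 0.796 and 0.355 CPM in WT, at 1.04 and 0.418 CPM in Tnfr1 KO, at 2.84, 0.785 and 0.420 CPM in Casp8 Mlkl dKO and at 2.56, 3.68 and 6.33 CPM in Casp8 Tnfr1 dKO. Casp8 Mlkl dKO replicate 1 lay inside the Casp8 Tnfr1 dKO range, and the other 7 livers lay below it. The log2 change from WT was 2.79 ± 0.72 and missed the threshold (edgeR adjusted p = 0.0530), as did the values of 2.49 ± 0.82 against Tnfr1 KO (adjusted p = 0.175) and 1.64 ± 0.68 against Casp8 Mlkl dKO (adjusted p = 0.293). Without the pair of livers that stood apart, the value against WT was 2.39 ± 0.40 (edgeR adjusted p = 0.000362), and without Casp8 Mlkl dKO replicate 1 alone it was 2.79 ± 0.52 (adjusted p = 0.0138). Ltb was also called against WT without Casp8 Mlkl dKO replicate 3 or Casp8 Tnfr1 dKO replicate 1 (edgeR adjusted p = 0.0410 and 0.0451). Against Casp8 Mlkl dKO it was called without replicate 1 of that genotype (2.77 ± 0.61, edgeR adjusted p = 0.0475), and against Tnfr1 KO the value was 3.28 without Tnfr1 KO replicate 1 (adjusted p = 0.620).

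**Figure D3:**
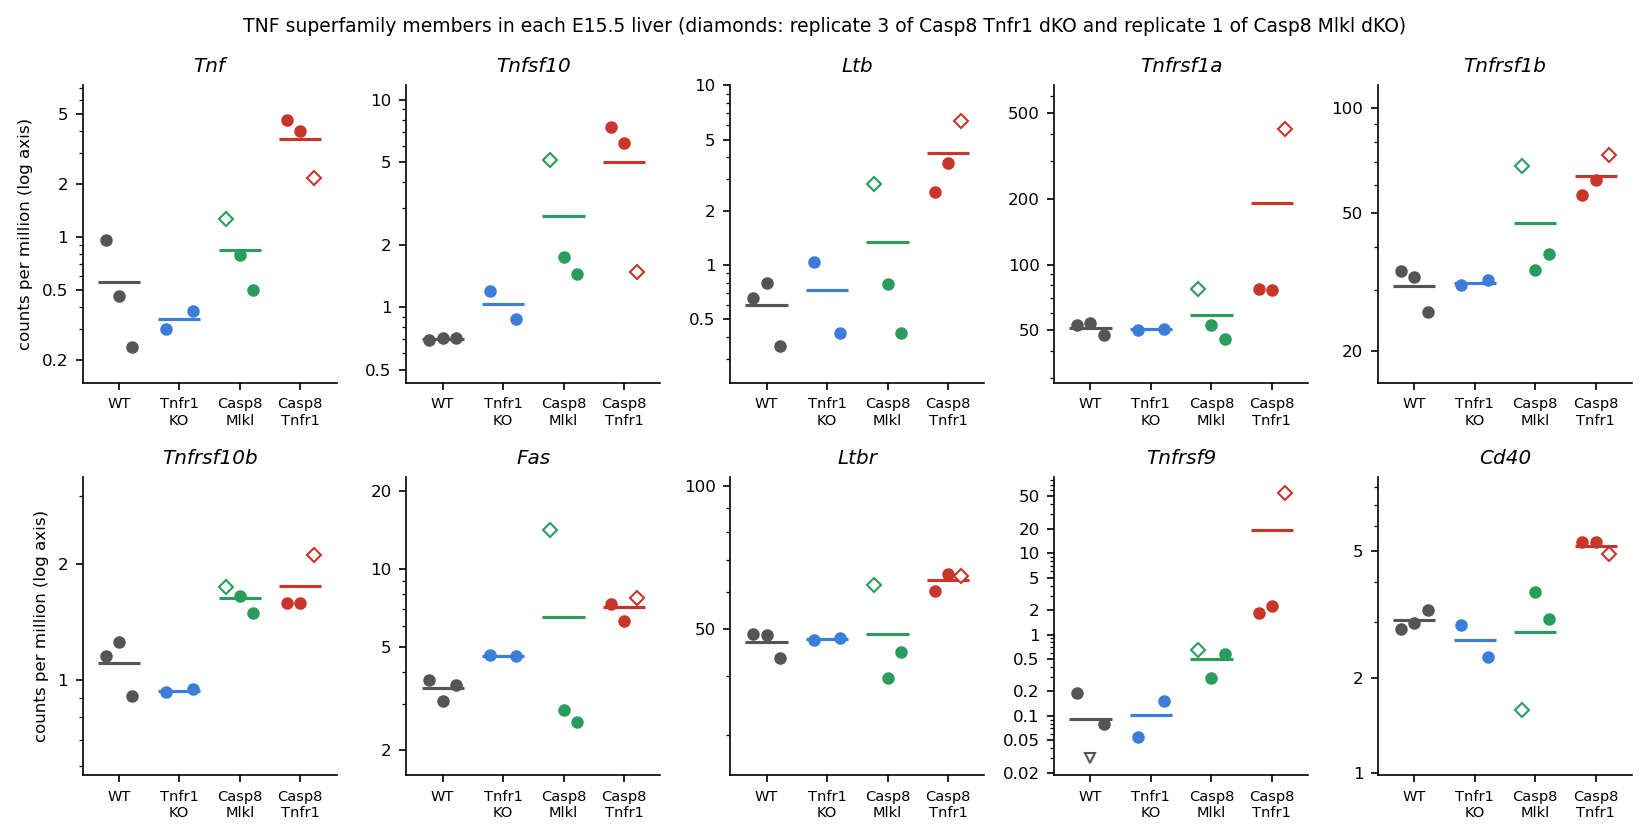
CPM on a log axis for each member in each liver, with a bar at each genotype's mean. Open diamonds mark Casp8 Tnfr1 dKO replicate 3 and Casp8 Mlkl dKO replicate 1, and the open triangle a count of 0 drawn at the foot of the axis. Tnf, Tnfrsf9 and Cd40 are the 3 members with every Casp8 Tnfr1 dKO liver above the other 8, as held for 7.43% of all genes tested.

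None of the 3 death receptors passed the test against WT in the reported edgeR fit. Under other settings with all 11 livers, Tnfrsf1a was called by DESeq2 and by edgeR with no filter on low counts. Tnfrsf1a and Fas were called by limma-voom with quality weights. Tnfrsf1a was at 52.8, 53.4 and 47.1 CPM in WT, at 77.2, 52.5 and 45.4 CPM in Casp8 Mlkl dKO and at 76.9, 76.0 and 425 CPM in Casp8 Tnfr1 dKO. Replicate 3 of Casp8 Tnfr1 dKO thus stood far above the other livers of its genotype, and Casp8 Mlkl dKO replicate 1 was level with those other livers. The log2 change from WT was 1.91 ± 0.59 (edgeR adjusted p = 0.0896) with all livers. Without Casp8 Tnfr1 dKO replicate 3 it was 0.59 ± 0.19 (edgeR adjusted p = 0.0862), and without that liver and Casp8 Mlkl dKO replicate 1 it was 0.60 ± 0.08 (adjusted p = 4.53e-05). With replicate 3 kept and Casp8 Tnfr1 dKO replicate 1 or 2 left out, the value was 2.30 and was called (edgeR adjusted p = 0.0384 and 0.0379). The size of the Tnfrsf1a difference changed with replicate 3, the library highest in muscle, erythroid, stromal and endothelial markers, whose part in the result was not tested.

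Fas, the receptor of FAS ligand, was at 3.73, 3.10 and 3.55 CPM in WT, at 4.65 and 4.60 CPM in Tnfr1 KO, at 14.2, 2.85 and 2.56 CPM in Casp8 Mlkl dKO and at 7.35, 6.30 and 7.75 CPM in Casp8 Tnfr1 dKO. Casp8 Mlkl dKO replicate 1 was the highest of the 11 livers and the other livers of that genotype the lowest. The log2 change from WT was 1.04 ± 0.56 (edgeR adjusted p = 0.273) in Casp8 Tnfr1 dKO and 0.91 ± 0.56 (adjusted p = 0.914) in Casp8 Mlkl dKO. Without Casp8 Mlkl dKO replicate 1 these were 1.05 ± 0.17 (edgeR adjusted p = 0.00772) and -0.35 ± 0.19 (adjusted p = 1), so the sign for Casp8 Mlkl dKO rested on that liver. Casp8 Tnfr1 dKO against Casp8 Mlkl dKO was 1.40 ± 0.20 without it (edgeR adjusted p = 0.00882). Tnfrsf10b, the mouse TRAIL receptor with a death domain, was scarce, at 0.907 to 1.26 CPM in WT, 1.49 to 1.74 CPM in Casp8 Mlkl dKO and 1.58 to 2.11 CPM in Casp8 Tnfr1 dKO, and the dKO genotypes overlapped. Its difference from WT on the log2 scale was 0.66 ± 0.27 (edgeR adjusted p = 0.167), with no call against WT under any of the 20 alternative settings. Of its 50-base exonic stretches, 6.21% also occur in other genes.

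Among the receptors that bind TRAF proteins, Tnfrsf1b and Tnfrsf9 rose against WT. Tnfrsf1b, which encodes TNFR2 and is known in myeloid and lymphoid cells, was at 33.9, 32.7 and 25.9 CPM in WT, at 30.9 and 32.1 CPM in Tnfr1 KO, at 68.2, 34.2 and 38.1 CPM in Casp8 Mlkl dKO and at 56.3, 62.1 and 73.3 CPM in Casp8 Tnfr1 dKO. Casp8 Mlkl dKO replicate 1 lay among the Casp8 Tnfr1 dKO livers, and the other 7 lay below them. The log2 change from WT was 1.05 ± 0.25 (edgeR adjusted p = 0.0398), or 2.07-fold, against 1.02 ± 0.29 (adjusted p = 0.115) versus Tnfr1 KO and 0.45 ± 0.25 (adjusted p = 0.418) versus Casp8 Mlkl dKO. The call against WT was lost in 7 of the 11 fits that left out 1 liver (edgeR adjusted p 0.0505 to 0.171): each WT and Tnfr1 KO liver and Casp8 Tnfr1 dKO replicate 2 or 3. The log2 change from WT was 0.96 ± 0.10 without the pair of livers that stood apart (edgeR adjusted p = 7.14e-06). Without Casp8 Mlkl dKO replicate 1, Tnfrsf1b was called against Tnfr1 KO (1.02 ± 0.17, edgeR adjusted p = 0.0127) and Casp8 Mlkl dKO (0.82 ± 0.17, adjusted p = 0.0357). The 10 macrophage markers summed to 977 to 1073 CPM in Casp8 Tnfr1 dKO and to 1963 CPM in Casp8 Mlkl dKO replicate 1, against 602 to 848 CPM in the other 7 livers. Their sum was thus higher in the same 4 livers as Tnfrsf1b, but the single markers did not all follow it. Their median log2 change in Casp8 Tnfr1 dKO was -0.55 against WT, with 2 called higher and 2 lower, next to 5.1% and 0.702% of all genes tested. Against Casp8 Mlkl dKO it was -1.54, with 0 called higher and 2 lower, next to 1.54% and 0.116% of all genes tested. The part of these markers in the Tnfrsf1b result was not tested.

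Tnfrsf9 encodes 4-1BB, a costimulatory receptor best known on activated lymphocytes. It was scarce outside Casp8 Tnfr1 dKO, with 5, 0 and 2 reads in WT, 2 and 4 in Tnfr1 KO and 16, 10 and 15 in Casp8 Mlkl dKO. Casp8 Tnfr1 dKO livers held 60, 66 and 957 reads, or 1.83, 2.27 and 54.5 CPM. All 3 lay above the highest of the other 8, at 0.649 CPM, a separation that held for 7.43% of all genes tested. The log2 change from WT was 7.65 ± 1.59 (edgeR adjusted p = 0.0230), against Tnfr1 KO 7.57 ± 1.88 (adjusted p = 0.0794) and against Casp8 Mlkl dKO 5.28 ± 1.34 (adjusted p = 0.0943). Most of these reads came from replicate 3, and without that liver the log2 change from WT was 4.41 ± 0.67 (edgeR adjusted p = 0.00402). Without it, the value against Tnfr1 KO was 4.34 ± 0.76 and was called (edgeR adjusted p = 0.0127), and against Casp8 Mlkl dKO it was 2.04 ± 0.545 (adjusted p = 0.0946). Tnfrsf9 was also called against Tnfr1 KO without Casp8 Tnfr1 dKO replicate 1 or 2 (edgeR adjusted p = 0.0360 and 0.0466) and against Casp8 Mlkl dKO without Casp8 Tnfr1 dKO replicate 1 (adjusted p = 0.0410). The 126 reads in replicates 1 and 2 against 7 in WT gave a ratio of 21.9 after scaling for library size, with a 95% interval of 10.3 to 55.6 that covers counting error only. The call against WT was lost when WT replicate 1, 2 or 3 was left out (edgeR adjusted p = 0.0866, 0.107 and 0.121), with a log2 change of 8.76 without WT replicate 1. The 9 T and NK cell markers summed to 9.63 to 13.8 CPM in Casp8 Tnfr1 dKO, against 8.60 to 20.6 CPM in the other livers. Over the 4 of them with enough reads, the median log2 change from WT was 0.27. With edgeR 0 of these 4 were called, next to 5.8% of all genes tested. The part of these markers in the Tnfrsf9 result was not tested.

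Ltbr, the lymphotoxin-beta receptor of stromal and myeloid cells, and Cd40, a costimulatory receptor of B cells and macrophages, differed less. Ltbr was at 43.5 to 48.9 CPM in WT and at 60.2, 65.3 and 64.7 CPM in Casp8 Tnfr1 dKO, with Casp8 Mlkl dKO replicate 1 at 61.8 CPM inside that range. Its difference from WT on the log2 scale was 0.43 ± 0.16 (edgeR adjusted p = 0.147). Cd40 was at 2.84, 2.98 and 3.27 CPM in WT, at 2.93 and 2.32 CPM in Tnfr1 KO, at 1.58, 3.72 and 3.06 CPM in Casp8 Mlkl dKO and at 5.37, 5.34 and 4.90 CPM in Casp8 Tnfr1 dKO. All 3 Casp8 Tnfr1 dKO livers lay above the other 8, as they did for 7.43% of all genes tested. The log2 fold change of 0.78 ± 0.30 against WT missed the threshold (edgeR adjusted p = 0.148). The 6 B cell markers summed to 9.46 to 11.7 CPM in Casp8 Tnfr1 dKO and to 10.8 to 67.3 CPM elsewhere. The 10 macrophage markers summed to 977 to 1073 CPM in Casp8 Tnfr1 dKO and to 602 to 1963 CPM elsewhere. The part of these markers in the Cd40 result was not tested. Both receptors were called against WT without Casp8 Mlkl dKO replicate 1 alone (edgeR adjusted p = 0.0354 for Ltbr and 0.0368 for Cd40), Ltbr also against Casp8 Mlkl dKO (0.59 ± 0.12, adjusted p = 0.0344) and Cd40 against Tnfr1 KO (0.98 ± 0.22, adjusted p = 0.0408). Without the pair of livers that stood apart, the values against WT were 0.43 ± 0.08 for Ltbr (edgeR adjusted p = 0.000760) and 0.84 ± 0.18 for Cd40 (adjusted p = 0.00267).

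Against Tnfr1 KO, which asks what the loss of caspase-8 adds where TNFR1 is already absent, 1 of the 10 members was called, Tnf (higher), as were 2.17% of all genes tested (2.05% higher and 0.122% lower). All 10 log2 fold changes were above 0, from 0.41 for Ltbr to 7.57 for Tnfrsf9, with a median of 1.48 against -0.014 over all genes tested. All 10 members were higher in every Casp8 Tnfr1 dKO liver than in both Tnfr1 KO livers, as were 20.5% of all genes tested. The Tnf call was lost in 6 of the 11 fits that left out 1 liver (edgeR adjusted p 0.0518 to 0.447): either Tnfr1 KO liver, WT replicate 2, Casp8 Mlkl dKO replicate 2, or Casp8 Tnfr1 dKO replicate 1 or 2. Leaving out Casp8 Mlkl dKO replicate 1 or Casp8 Tnfr1 dKO replicate 3 gave 3 called members each, next to 4.38% and 5.19% of all genes. Without both of these livers, 9 members were called (all but Tnfrsf10b), while 23.2% of all genes tested were.

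Against Casp8 Mlkl dKO, which sets the 2 caspase-8-null genotypes side by side, 0 of the 10 members passed with edgeR, whereas 1.65% of all genes tested did (1.54% higher and 0.116% lower). At an unadjusted p under 0.05 there were 6 members (Tnf, Ltb, Tnfrsf1a, Ltbr, Tnfrsf9 and Cd40), all higher, and 15.3% of all genes tested. DESeq2 and limma-voom called 1 member each, Tnf, and limma-voom with quality weights called 9. The log2 fold changes ran from 0.10 for Tnfrsf10b to 5.28 for Tnfrsf9, with a median of 0.88 against -0.033 over all genes. Every Casp8 Tnfr1 dKO liver lay above every Casp8 Mlkl dKO liver for 3 members, Tnf, Tnfrsf9 and Cd40, and for 9.61% of all genes tested. These are also the 3 members whose Casp8 Tnfr1 dKO livers all lay above the other 8, as did 7.43% of all genes tested. Replicates 1 and 2 of Casp8 Tnfr1 dKO lay above the other 8 livers for 4 members (these and Tnfsf10) and for 10.7% of all genes tested. Without Casp8 Mlkl dKO replicate 1 edgeR called 4 members, next to 3.3% of all genes, and without Casp8 Tnfr1 dKO replicate 1 or 3 it called 1, next to 2.17% and 3.17%. Without the pair of livers that stood apart, edgeR called 9 of 10 (all but Tnfrsf10b, at a log2 fold change of 0.02), and 18.1% of all genes tested.

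The 3 comparisons without Casp8 Tnfr1 dKO called 0 of the 10 members each with edgeR. In Casp8 Mlkl dKO against WT the background was 0.0058%, and 2 members, Tnfsf10 (log2 fold change 1.96 ± 0.64) and Tnfrsf1b (0.60 ± 0.25), had an unadjusted p under 0.05, as did 5.63% of all genes. In Tnfr1 KO against WT the background was 0%, and 0 members and 1.08% of all genes had an unadjusted p under 0.05. In Casp8 Mlkl dKO against Tnfr1 KO the background was again 0.0058%, with 1 member, Tnfrsf10b (0.79 ± 0.30), and 2.01% of all genes at an unadjusted p under 0.05. All 3 Casp8 Mlkl dKO livers lay above all 3 WT livers for 4 members, Tnfsf10, Tnfrsf1b, Tnfrsf10b and Tnfrsf9, and for 10.8% of all genes tested. All 3 Casp8 Mlkl dKO livers lay above both Tnfr1 KO livers for those 4 members and Tnf, 5 of the 10, and for 11.6% of all genes tested. Both Tnfr1 KO livers lay above all WT livers for Tnfsf10 and Fas, 2 of the 10, and for 17.3% of all genes tested. DESeq2 and limma-voom also called 0 members in these comparisons, and limma-voom with quality weights called 1, Tnfsf10 in Casp8 Mlkl dKO against WT, where it called 6.04% of all genes. The intervals were wide: for Tnf in Tnfr1 KO against WT, the 95% interval of the log2 fold change ran from -2.13 to 0.72.

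Ordered by mean CPM, Casp8 Tnfr1 dKO came first of the 4 genotypes for all 10 members, and Casp8 Mlkl dKO second for 9 of them (WT for Cd40). The step from first to second did not pass the test for any member, with edgeR adjusted p from 0.0923 for Tnf to 0.913 for Fas, nor did any lower step. These comparisons share livers, so their values are set side by side and are not independent.

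How many members were called depended on the method, as did the share of all genes called. DESeq2 called 5, 6 and 1 of the 9 members to which it gave an adjusted p (Tnfrsf9 had none) against WT, Tnfr1 KO and Casp8 Mlkl dKO, next to 14%, 7.5% and 5.56% of all genes. Limma-voom called 2, 1 and 1 of 10, next to 4.68%, 2.27% and 1.78% of all genes, and with quality weights 9, 10 and 9, next to 30.6%, 25.1% and 15.7%. Tnf was called in all 3 comparisons by DESeq2 and by limma-voom with or without weights. With edgeR and DESeq2 size factors, 4, 1 and 0 members were called, next to 5.7%, 2.05% and 1.45% of all genes. Testing every gene with a read gave 6, 2 and 1 members and 3.8%, 1.57% and 1.43% of genes, and a mean of at least 10 counts gave 4, 1 and 0 members and 6.15%, 2.38% and 1.81% of genes. Fitting only the 2 genotypes compared gave 2, 0 and 0 members and 3.02%, 0.334% and 0.0673% of genes, and the replicate block gave 3, 1 and 1 members and 3.32%, 1.1% and 0.835% of genes.

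**Figure D4:**
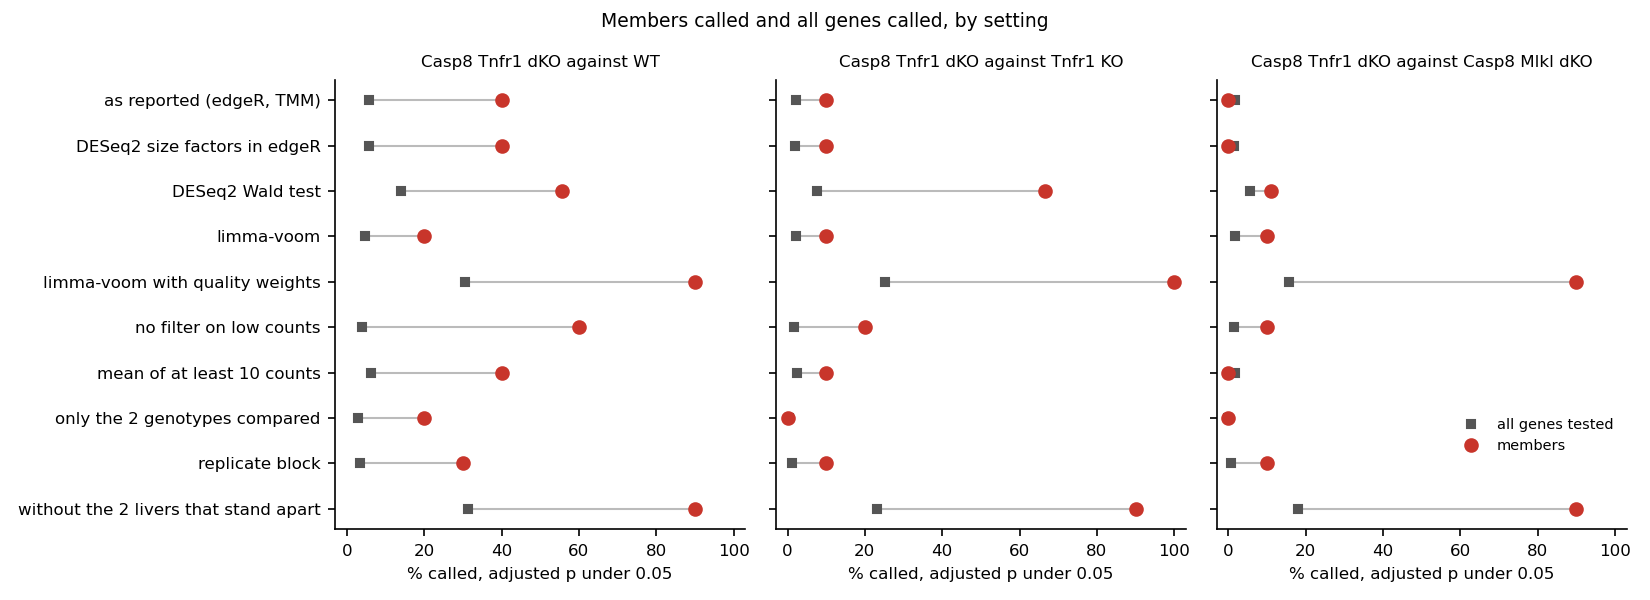
Percent of the members (circles) and of all genes tested (squares) called at an adjusted p under 0.05, for Casp8 Tnfr1 dKO against each other genotype, under the reported fit and 9 alternatives. Against WT, 4 of 10 members and 5.8% of genes were called as reported, and 9 of 10 and 31.3% without the pair of livers that stood apart.

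The rest of the family was read from a list of 36 further ligands and receptors, of which 25 had enough reads. Against WT, 5 of the 25 rose in Casp8 Tnfr1 dKO and 0 fell, next to 5.1% and 0.702% of all genes tested. They were Tnfsf14 (LIGHT, another ligand of LTBR), Tnfrsf11a (RANK, the receptor for osteoclast differentiation), Tnfrsf11b (osteoprotegerin, a soluble decoy for RANK ligand), Ngfr (the p75 neurotrophin receptor) and Tnfrsf26. Of the 25, Ngfr alone was called in all 3 Casp8 Tnfr1 dKO comparisons with edgeR. It stood at 8.14, 8.55 and 6.78 CPM in WT and at 6.95 and 7.22 CPM in Tnfr1 KO. In Casp8 Mlkl dKO it stood at 8.76, 11.1 and 11.3 CPM, and in Casp8 Tnfr1 dKO at 21.9, 19.4 and 30.7 CPM. Ngfr was thus higher in every Casp8 Tnfr1 dKO liver than in the other 8, as were 7.43% of all genes tested. Its log2 fold change was 1.61 ± 0.21 against WT (edgeR adjusted p = 0.00242), 1.76 ± 0.24 against Tnfr1 KO (adjusted p = 0.00579) and 1.21 ± 0.21 against Casp8 Mlkl dKO (adjusted p = 0.0209). Against WT, Tnfsf14 rose by 1.13 ± 0.20 on the log2 scale (edgeR adjusted p = 0.0101), Tnfrsf11a by 1.42 ± 0.31 (adjusted p = 0.0275), Tnfrsf11b by 0.93 ± 0.21 (adjusted p = 0.0331) and Tnfrsf26 by 1.76 ± 0.38 (adjusted p = 0.0268). With 1 liver left out edgeR called 1 to 8 of the 25 against WT, next to 1.63% to 9.83% of all genes. Ngfr alone was left without WT replicate 2 or 3. Without the pair of livers that stood apart edgeR called 16, next to 31.3% of all genes. Tnfrsf14 was among the 8 and the 16, and its level was lower in Casp8 Tnfr1 dKO. It stood at 127, 122 and 99.6 CPM there, at 165 to 182 CPM in WT and at 203 and 199 CPM in Tnfr1 KO. In Casp8 Mlkl dKO it stood at 120, 167 and 168 CPM. The Ngfr call was lost against Tnfr1 KO without either Tnfr1 KO liver (edgeR adjusted p = 0.141 and 0.110), and against Casp8 Mlkl dKO without Tnfr1 KO replicate 1 (adjusted p = 0.0513) or Casp8 Mlkl dKO replicate 2 or 3 (adjusted p = 0.0877 and 0.0866). Tnfrsf26 overlaps an antisense gene over 3.33% of its exonic bases, and the strand setting of the counting is not given in the sources used here. Of the 11 that were not tested, Cd70 had no read in any liver, Cd40lg, the ligand of CD40, had 1 read over all 11 livers together, Fasl, the ligand of FAS, 66 and Lta 39, and Tnfsf8 had 50 reads in Casp8 Tnfr1 dKO replicate 3 against at most 4 in any other liver. These 5 untested genes were chosen after their values were seen.

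**Figure D5:**
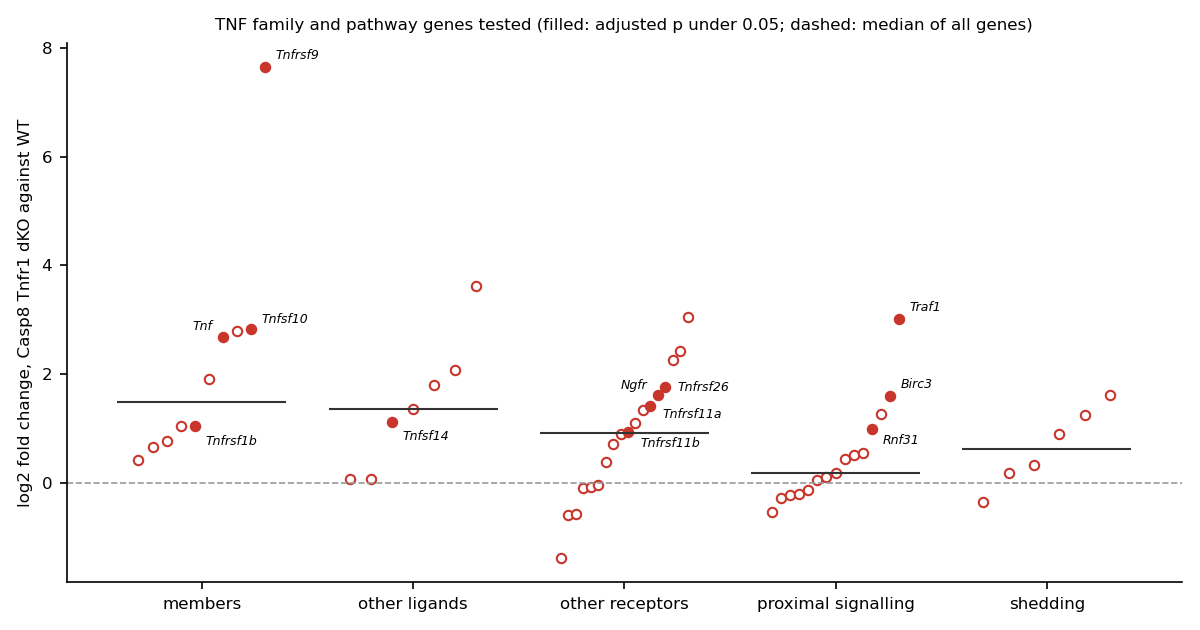
Log2 fold change of each tested gene in Casp8 Tnfr1 dKO (n = 3) against WT (n = 3), grouped as the 10 members, other family ligands (7 tested), other family receptors (18), proximal signalling (15) and shedding (6), with filled points for an edgeR adjusted p under 0.05. Solid lines mark each group's median, from 0.18 for proximal signalling to 1.48 for the members.

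Inside the cell, 3 of 15 adaptors and ubiquitin ligases of the proximal receptor complexes rose against WT and 0 fell. Of all genes tested, 5.1% rose and 0.702% fell. Traf1, an NF-kB-inducible TRAF protein, went from 2 to 5 reads in WT to 24, 36 and 30 in Casp8 Tnfr1 dKO, with 5 to 9 reads in the other 5 livers, a log2 fold change of 3.01 ± 0.52 (edgeR adjusted p = 0.00994). Birc3 (cIAP2, a ubiquitin ligase bound to TRAF proteins) rose by 1.59 ± 0.34 on the log2 scale (edgeR adjusted p = 0.0254), and Rnf31 (HOIP, the catalytic subunit of the linear ubiquitin ligase) rose by 0.99 ± 0.24 (adjusted p = 0.0405). The other 12 did not pass. The 3 calls became 0 without WT replicate 1 or 2, next to 2.14% and 1.72% of all genes. They became 1 (Traf1) without WT replicate 3 or Tnfr1 KO replicate 1, next to 1.63% and 3.03%. There were 5 without Casp8 Mlkl dKO replicate 1, next to 9.45%, and 7 without the pair of livers that stood apart, next to 31.3%. The median over the 15 was 0.18, next to -0.0015 over all genes. In the other Casp8 Tnfr1 dKO comparisons 0 of the 15 passed with all 11 livers and edgeR. The shares of all genes were 2.17% against Tnfr1 KO and 1.65% against Casp8 Mlkl dKO. DESeq2 called 3 against Tnfr1 KO and 1 against Casp8 Mlkl dKO, next to 7.5% and 5.56% of all genes. Of 6 genes of ligand and receptor shedding, 0 passed against WT with edgeR and 2 with DESeq2, next to 5.8% and 14% of all genes. EdgeR called 2 without any 1 of the Casp8 Tnfr1 dKO livers, next to 7.68% to 9.83% of all genes. It called 5 without the pair that stood apart, next to 31.3%. Adam17, the TNF sheddase, was at 0.19 on the log2 scale and at 0.35 ± 0.09 without Casp8 Tnfr1 dKO replicate 3 (edgeR adjusted p = 0.0385). Rhbdf1, a cofactor of that sheddase, was at 1.61 and at 0.66 ± 0.14 without that liver (adjusted p = 0.0169), where it stood at 67.2 CPM against 17.0 and 17.9 in the other livers of the genotype. These examples were chosen after their values were seen.

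Correlations between the members were read from liver to liver. Over the 45 member pairs, the Pearson correlation of log2 CPM across the 11 livers had a median of 0.69, from -0.09 for Fas and Cd40 to 0.93 for Ltb and Tnfrsf1b, and 35 pairs lay above 0.5. The points share their genotypes, their libraries and the pair of livers that stood apart, so these are descriptions. No such median or count was computed over pairs of other genes, so the values do not set the members apart from them. The tested genes most like Tnf across the 11 livers were 6530402F18Rik (r = 0.979), Slc15a3 (0.972) and Clec5a (0.971). Tnfsf10 was most like Zyg11b (0.990), Apobec1 (0.980) and Wdfy2 (0.967). Tnfrsf1a, whose pattern is led by Casp8 Tnfr1 dKO replicate 3, was most like Lox, Stc1 and Jun (0.993 each), and Tnfrsf9 like Prkd2 (0.986), Bcl6b (0.985) and Aebp1 (0.983). Tnfrsf1b was most like Ctsz (0.983), Slc31a2 (0.982) and Ralb (0.980), Ltb like A530064D06Rik (0.969), Ifngr2 (0.965) and 2010003K11Rik (0.964), and Ltbr like Camp and Hp (0.974 each) and Gramd2 (0.973). Fas was most like Syne4 (0.978), Klrb1c (0.975) and Cfb (0.972), Tnfrsf10b like Relb (0.944), Neurl3 (0.943) and Itga9 (0.943), and Cd40 like Ppp2r2a (0.944), Ptpn12 (0.941) and G6pdx (0.939). Without Casp8 Tnfr1 dKO replicate 3, 5 of these 30 genes remained among the 3 most like their member: 6530402F18Rik, Zyg11b, A530064D06Rik, Relb and Prkd2.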

How the data were processed

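RNA-seq was performed on 11 E15.5 fetal livers of 4 genotypes. According to the submitters' processing notes and the study's methods, single-end reads were aligned to GRCm38/mm10 with GSNAP and uniquely mapped reads were used. The labels name a TruSeq RNA v2 kit and the methods a TruSeq Stranded mRNA kit, and the counting tool, annotation and strand setting are not given in the sources used here. The authors deposited, per gene and liver, a raw exonic read count, a gene width (exonic bases) and an RPKM value. The deposited RPKM values were used only to check the counts.

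Counts were tested as deposited. Genes were named and placed with GENCODE M21 (GRCm38). Genes with low counts were removed with filterByExpr (minimum count of 10), leaving 17243 of 52636, and TMM-scaled counts of all 4 genotypes were fitted together with edgeR 4.0.16 (quasi-likelihood F test, Benjamini-Hochberg threshold 0.05, R 4.3.3). The study used limma, which is run here as an alternative (limma 3.58.1 with voom, with and without quality weights per library), as is DESeq2 1.42.0. CPM and RPKM given in the text were computed from the TMM-scaled counts. All 6 pairwise comparisons were made. Alternatives were another scaling, other filters, only the genotypes compared, the replicate number as a block, each liver left out, and both livers that stood apart left out. The members, the gene lists and the pair of livers to leave out were chosen with earlier results of these data known. Named genes are the 10 members, other family, signalling and shedding genes called in a Casp8 Tnfr1 dKO comparison (those with the smallest adjusted p where there were many), the 3 genes most like each member, the targeted genes and cell type markers. Library totals ranged from 23129212 to 35819339 counts, and intervals on counts cover counting error only.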

Additional observations from a re-analysis of the deposited data

How the results depend on the processing

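The counts of members called moved with the processing. Against WT, TNF family calls in Casp8 Tnfr1 dKO went from 4 to 2 with limma-voom or with only the 2 genotypes in the fit, and to 9 with quality weights or without both livers that stood apart, and ranged from 0 to 8 with 1 liver left out. Against Tnfr1 KO they went from 1 to 6 with DESeq2, 10 with quality weights, 2 with no filter, 0 with only the 2 genotypes and 9 without both livers, and ranged from 0 to 3 with 1 liver left out. Against Casp8 Mlkl dKO they went from 0 to 1 with DESeq2, limma-voom, no filter or the replicate block, and to 9 with quality weights or without both livers, and ranged from 0 to 4 with 1 liver left out. In Casp8 Mlkl dKO, 1 member was called against WT with quality weights or without both livers, next to 6.04% and 6.4% of all genes, and 1 against Tnfr1 KO without both livers, next to 3.49%. DESeq2 gave no adjusted p for Tnfrsf9. The causes were not tested. Deviations of same-numbered livers from their genotype means correlated at r from -0.297 to 0.275 (15 pairs, 5 over 0.1). In groups this small such deviations depend on each other, so these values cannot decide whether livers were paired. The replicate numbers were not taken as pairing. The replicate block left 3, 1 and 1 members called against WT, Tnfr1 KO and Casp8 Mlkl dKO.

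Some log2 fold changes changed sign, in each case from a value that was not called. With 1 liver left out, Casp8 Tnfr1 dKO against Casp8 Mlkl dKO ranged from -0.036 to 0.19 for Tnfrsf10b and from -0.24 to 1.40 for Fas. Casp8 Mlkl dKO against WT ranged from -0.060 to 0.34 for Tnfrsf1a, -0.35 to 1.29 for Fas, -0.15 to 0.17 for Ltbr and -0.39 to 0.16 for Cd40. Tnfr1 KO against WT ranged from -0.52 to 0.79 for Ltb, -0.077 to 0.0075 for Tnfrsf1a, -0.075 to 0.11 for Tnfrsf1b, -0.029 to 0.050 for Ltbr and -0.71 to 1.19 for Tnfrsf9. Casp8 Mlkl dKO against Tnfr1 KO ranged from -0.28 to 1.67 for Ltb, -0.039 to 0.36 for Tnfrsf1a, -0.78 to 0.87 for Fas, -0.18 to 0.15 for Ltbr and -0.19 to 0.36 for Cd40 (0.37 without both livers that stood apart). With quality weights, Casp8 Mlkl dKO against WT gave -0.18 for Ltb, -0.10 for Tnfrsf1a, -0.30 for Fas, -0.13 for Ltbr and 0.10 for Cd40, and against Tnfr1 KO it gave -0.36 for Ltb, -0.055 for Tnfrsf1a, -0.73 for Fas and -0.13 for Ltbr, while Tnfr1 KO against WT gave -0.0035 for Tnfrsf1b. Without both livers that stood apart, Casp8 Mlkl dKO against WT gave -0.057 for Tnfrsf1a, -0.35 for Fas, -0.15 for Ltbr and 0.17 for Cd40, and against Tnfr1 KO -0.29 for Ltb, -0.029 for Tnfrsf1a, -0.77 for Fas (called, edgeR adjusted p = 0.0362) and -0.17 for Ltbr. With limma-voom, Fas was at -0.026 in Casp8 Mlkl dKO against Tnfr1 KO. With the replicate block, Tnfr1 KO against WT gave 0.17 for Tnfrsf1a, -0.0066 for Tnfrsf1b and -0.011 for Ltbr. For Casp8 Tnfr1 dKO against WT and against Tnfr1 KO, all 10 members kept a log2 fold change above 0 under every alternative that gave a value. Depth limits Tnfrsf9, with at most 5 reads a liver in WT and Tnfr1 KO, and Tnf, with 6 to 31 reads outside Casp8 Tnfr1 dKO.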
